A study of Mus musculus with 8 samples.

Results

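The Rab GTPases were described in bone marrow macrophages of the mouse, from 8 Illumina beadchips. Rab genes were taken as all genes whose symbol in the platform annotation is Rab followed by a digit and which encode a Rab GTPase, with interacting proteins, activating proteins, exchange factors and antisense RNAs left out. This gave 59 genes with 112 probes, of 19057 named genes and 45281 probes on the array. The libraries fall into 2 groups by label. The 4 libraries labelled wild type (WT 1 to WT 4) came from C57BL/6 mice and the 4 labelled knockout (KO 1 to KO 4) from vav1-/- mice, whose strain is also given as C57BL/6. All mice were 7 to 12 weeks old and of both sexes, and the labels name no treatment and no other allele. The design asks how expression in macrophages differs between mice with and without Vav1, a signalling protein of blood cells. The sources used here do not give how the Vav1 allele was made or which libraries came from separate animals. The p-values therefore reflect only how these libraries spread, and that spread may be technical.

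Rab proteins are small GTPases that mark the membranes of a cell and steer the budding, movement, tethering and fusion of vesicles. Each switches between a GTP-bound form, which recruits effectors to a membrane, and a GDP-bound form, which a GDP dissociation inhibitor carries through the cytosol. In macrophages they are best known for phagocytosis: Rab5 marks the young phagosome and Rab7 replaces it before fusion with lysosomes, while Rab11 and Rab35 act in recycling to the surface.

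Several features of the libraries bear on every Rab value. Vav1, the targeted gene, went against the labels: libraries numbered 1 and 2 read 1642 to 1825 and libraries numbered 3 and 4 read 267 to 384, whatever the label. Its log2 fold change between labels was -0.047 ± 0.87 (SE), adjusted p 0.981 in limma. The sources used here do not say whether its probe lies in the deleted part, so every direction in the text is between labels, not between known genotypes. The library labelled WT 4 correlated with the other 7 at 0.839 to 0.901, while those 7 correlated with each other at 0.971 to 0.996. Fold changes are therefore given with and without it. Of 11 macrophage markers 10 were on the array and all 10 passed the intensity filter, with a summed intensity of 62848 to 80395 in the libraries labelled wild type and 65939 to 71083 in those labelled knockout. Of the markers of T cells, B cells and stromal cells on the array, 0 passed the filter. S100a8 and S100a9 passed it among 6 neutrophil markers, Itgax among 5 dendritic cell markers and Cpa3 and Kit among 4 mast cell markers. Pf4, a platelet chemokine, passed it among 4 erythroid and megakaryocyte markers and was highest in WT 4, at 7143 beside 3485 to 5642 elsewhere. All 8 arrays share a distribution, with the median probe at an intensity of 86.2, and the number of arrays limits the precision. In such bulk samples, fewer cells of a type and less RNA per cell cannot be told apart.

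Of the 59 Rab genes, 39 had at least 1 probe that reached an intensity of 100 on at least 4 arrays, and 62 of the 112 probes did so. The other 20 genes had no probe that passed this filter and were not tested. Among these were Rab27b and Rab37, which act in regulated secretion, all 3 probes of Rab3c and both of Rab3b, which act at synapses and in endocrine cells, and the epithelial Rab17 and Rab25. Rab20, which is known from phagosomes, read 80.9 to 98.2 on its single probe. Over all probes of the 20 genes, the highest value was 143, for Rab39 in WT 4, while Rab39 reached 106 in the other 7 libraries. Rab6b reached 122 and Rab42 102 outside WT 4. Rab39b and Rab26 passed 100 in WT 4 alone, at 138 and 123. No probe level is set against that of another probe here, since probes differ in how well they hybridise.

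Between the labels no Rab gene passed the test. Of the 39 genes, each represented by its kept probe with the highest mean, 0 had an adjusted p under 0.05 in limma, in an array where 0% of the 7982 genes tested did. At an unadjusted p under 0.05 there were also 0 Rab genes, where the share over all genes was 0.338%, and without WT 4 again 0, where it was 0.363%. Apart from Rab8a, the values of the 2 labels overlapped in every tested Rab gene. The knockout label had the higher value in 17 Rab genes and the lower in 22, with a median log2 fold change of -0.13, against -0.038 over all genes tested. Over all 62 kept Rab probes, 31 values were higher and 31 lower, with a median of 0.0025, and 23 were higher and 39 lower without WT 4. Without WT 4 there were 11 higher and 28 lower values, so that 28.2% were higher against 46.2% of all genes, with a median of -0.045 against -0.0087 over all genes. Fold changes of single Rab genes ran from -0.42 (Rab27a) to 0.48 (Rab6a) with all 8 libraries, and from -0.21 (Rab27a) to 0.16 (Rab9) without WT 4. On the representative probes, the median 95% interval reached 0.40 on the log2 scale to either side. Only those of Rab5a and Rab6a extended past a 2-fold difference there. Over all 62 kept Rab probes, 6 intervals did, reaching as far as 1.85 from 0. The adjusted p from limma was 0.795 to 0.956 over the 39 genes, and 0.795 for each gene given below with all 8 values unless another is stated.

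**Figure D1:**
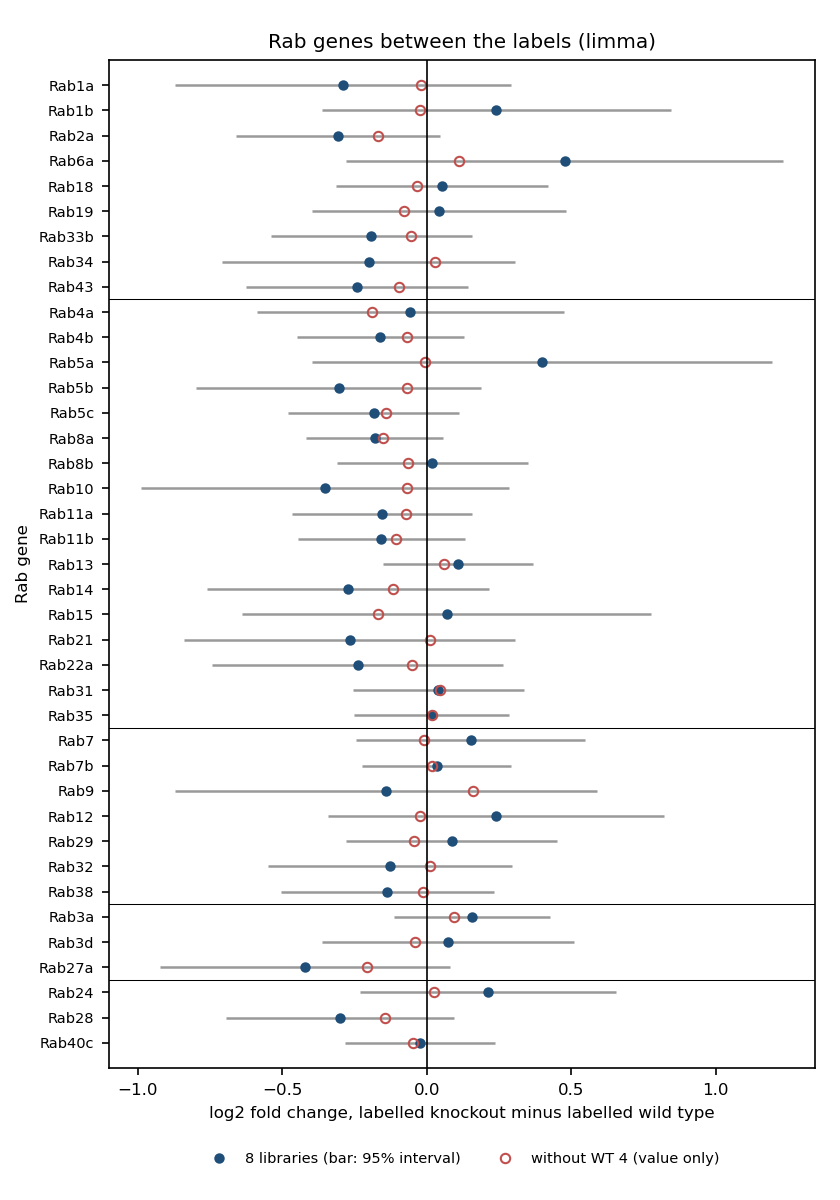
Log2 fold change (x axis) of the 39 tested Rab genes (y axis, by role) between the libraries labelled knockout and those labelled wild type, with filled points and 95% intervals for all 8 libraries and open points for the values without WT 4. All 39 intervals hold 0, and the open points lie between -0.21 and 0.16.

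Over the 7 libraries other than WT 4, most Rab genes held a narrow range, and so did most genes tested. The highest value was under 1.5 times the lowest in 32 of the 39 genes (82.1%), against 81.8% of all genes tested. The narrowest was Rab5b at 1.12-fold and the widest Rab15 at 1.86-fold. These are ratios of deposited intensities with no background taken off here, which can narrow them in dim probes. Rab5b read 128 to 144 in these libraries, beside an array median of 86.2. In WT 4, by contrast, 20 Rab genes lay above all other 7 libraries and 14 below them, where 44.1% and 34.8% of all genes did. The shares of the Rab genes, 51.3% and 35.9%, were near those of all genes. The distance of WT 4 from the mean of the others was taken on the background-corrected log2 scale of the fit. It passed 2-fold upward in Rab1a, Rab9, Rab10 and Rab21 and downward in Rab1b, Rab5a, Rab6a and Rab12. Over all genes, 6.4% passed 2-fold upward and 10.7% downward on that scale. On the printed intensities, the distance is smaller for dim probes such as those of Rab1b and Rab12.

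**Figure D2:**
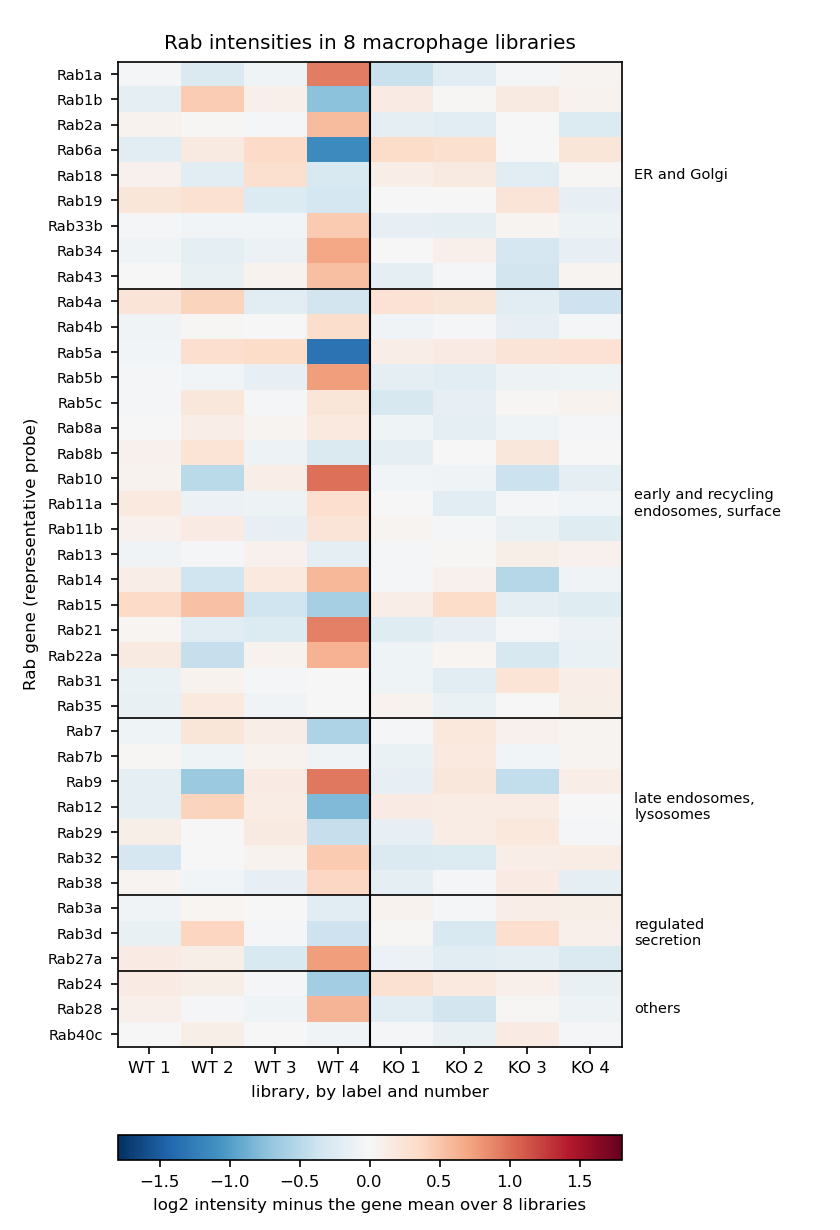
Log2 intensity of the 39 tested Rab genes (rows, by role) in the 8 libraries (columns), relative to the mean of each gene over the 8 libraries (colour). The WT 4 column holds the strongest colours in both directions, with Rab5a and Rab6a low and Rab10, Rab9 and Rab21 high.

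The Rabs of the endoplasmic reticulum and the Golgi had 9 tested genes among 14. Of these 0 passed, 4 values were higher and 5 lower under the knockout label, with a median log2 fold change of -0.19, or -0.035 without WT 4. Rab2a, which acts between the endoplasmic reticulum and the Golgi, had the smallest unadjusted p of all Rab genes in limma (0.0795). It read 3178, 3087, 2996 and 4526 in WT 1 to WT 4 and 2711, 2665, 3053 and 2579 in KO 1 to KO 4. The highest value was that of WT 4, and KO 3 lay inside the range of the libraries labelled wild type. On the log2 scale the fold change was -0.31 ± 0.16 (SE), and -0.17 without WT 4.

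Rab6a, a Golgi Rab of retrograde transport, read 198, 253, 286 and 102 in WT 1 to WT 4 and 284, 274, 224 and 263 in KO 1 to KO 4. WT 4 was the lowest, below 198 to 286 in the other 7 libraries, and the fold change of 0.48 ± 0.33 (SE) became 0.11 without it, or 0.064 as the mean of its 4 kept probes. Rab43, which is known from Golgi transport, read 779, 711, 810.1 and 1128 in WT 1 to WT 4 and 697, 763, 621 and 802 in KO 1 to KO 4. WT 4 was again apart, on the high side, and without it the fold change moved from -0.24 ± 0.17 (SE) to -0.10. Rab1b, which drives transport from the endoplasmic reticulum to the Golgi, read 129.5, 201, 156 and 87.9 in WT 1 to WT 4 and 162, 149, 164 and 153 in KO 1 to KO 4. Its fold change of 0.24 ± 0.27 (SE) turned to -0.025 without WT 4, which held the lowest value. Its paralogue Rab1a stood on the opposite side in that library, at 1296 against 515 to 708 in the others. The remaining tested genes were Rab18, Rab19, Rab33b and Rab34, with fold changes of -0.20 to 0.053, and -0.078 to 0.027 without WT 4.

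Among the Rabs of early and recycling endosomes and of delivery to the surface, 17 of 20 were tested. Of these 0 passed, 6 values were higher and 11 lower under the knockout label, and the median was -0.16, and -0.068 without WT 4. The 3 Rab5 paralogues, which govern fusion of early endosomes and the first step of phagosome maturation, are given first on their representative probes. Rab5a read 508, 649.8, 663 and 210.3 in WT 1 to WT 4 and 571, 581, 619 and 629 in KO 1 to KO 4. WT 4 lay below all others, and the fold change of 0.40 ± 0.35 (SE) became -0.0069 without it, or 0.11 as the mean of its 3 kept probes, of which 1 was highest in WT 4. Rab5b read 144, 141, 133 and 248 in WT 1 to WT 4 and 131, 128, 137 and 139 in KO 1 to KO 4. Here WT 4 lay above all others, and the fold change of -0.30 ± 0.22 (SE) became -0.067 without it. Rab5c read 3320.1, 3882, 3289 and 3911 in WT 1 to WT 4 and 2754, 3032, 3410.2 and 3512 in KO 1 to KO 4. Its groups overlapped without WT 4 as with it, and the fold change was -0.18 ± 0.13 (SE), and -0.14 without that library.

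The promoters of the Rab5 and Rab8 paralogues are shown because these close relatives stood on different sides of WT 4 or of the labels on their representative probes. Other kept probes of Rab5a and Rab8a did not keep those sides, as described further on. Each window runs from 250 bases before to 50 after the gene start, in RefSeq on GRCm38.p6, 5′ to 3′ on the strand of the gene. Capitals mark GC boxes, searched as GGGCGG and as its reverse complement CCGCCC. The Rab5a window is chr17:53478984-53479283 on the plus strand, that of Rab5b chr10:128696219-128696518 on the minus strand and that of Rab5c chr11:100738166-100738465 on the minus strand. Rab8a lies at chr8:72160950-72161249 on the plus strand and Rab8b at chr9:66919656-66919955 on the minus strand.
Rab5a: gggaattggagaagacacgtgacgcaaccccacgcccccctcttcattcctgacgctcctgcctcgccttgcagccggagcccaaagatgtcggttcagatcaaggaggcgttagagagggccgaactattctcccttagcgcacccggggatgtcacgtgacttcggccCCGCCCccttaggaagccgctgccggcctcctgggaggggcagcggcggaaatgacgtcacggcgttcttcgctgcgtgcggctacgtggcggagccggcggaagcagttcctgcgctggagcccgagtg
Rab5b: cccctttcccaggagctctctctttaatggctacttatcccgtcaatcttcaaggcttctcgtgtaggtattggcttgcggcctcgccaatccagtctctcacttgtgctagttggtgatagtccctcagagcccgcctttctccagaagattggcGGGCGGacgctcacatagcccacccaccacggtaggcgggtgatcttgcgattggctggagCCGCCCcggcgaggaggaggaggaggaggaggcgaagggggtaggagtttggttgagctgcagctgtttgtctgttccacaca
Rab5c: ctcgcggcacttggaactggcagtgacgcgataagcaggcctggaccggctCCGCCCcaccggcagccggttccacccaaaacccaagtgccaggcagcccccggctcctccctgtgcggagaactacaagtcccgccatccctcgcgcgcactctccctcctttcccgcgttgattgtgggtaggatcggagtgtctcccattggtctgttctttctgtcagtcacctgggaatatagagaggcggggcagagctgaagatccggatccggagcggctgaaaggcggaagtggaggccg
Rab8a: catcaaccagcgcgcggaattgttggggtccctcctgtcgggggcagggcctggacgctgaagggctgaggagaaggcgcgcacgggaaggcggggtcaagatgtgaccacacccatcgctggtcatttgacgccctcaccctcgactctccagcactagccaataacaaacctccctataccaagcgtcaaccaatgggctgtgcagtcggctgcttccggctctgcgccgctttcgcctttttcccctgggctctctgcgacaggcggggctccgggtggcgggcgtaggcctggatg
Rab8b: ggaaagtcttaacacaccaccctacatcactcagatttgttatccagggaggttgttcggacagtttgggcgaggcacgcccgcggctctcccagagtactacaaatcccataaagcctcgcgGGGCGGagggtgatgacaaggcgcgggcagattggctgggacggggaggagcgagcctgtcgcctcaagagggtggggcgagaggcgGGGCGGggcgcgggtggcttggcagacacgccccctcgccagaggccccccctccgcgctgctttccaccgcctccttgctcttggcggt
Rab5a and Rab5c held 1 GC box each, Rab5b and Rab8b held 2, and the Rab8a window held 0.

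Over all Rab genes, 48 had promoter windows in the RefSeq table, 60 windows in all. A GC box was found in 41 of them (68.3%), where 35.7% of 32851 windows of the same length held one. The latter were not matched to the Rab windows in G and C content or gene type. Genes with several starts, such as Rab15 and Rab43, count several times, in part with overlapping windows. The E-box CACGTG, which is its own reverse complement, was found in 6 Rab windows (10.0%, against 7.15% of all). The letters TATAAA, on either strand, stood in 4 (6.67%, against 13.6%). The median share of G and C was 61.2% in Rab windows and 52.7% in all. GC boxes were found in 30 of 45 windows (66.7%) of Rab genes that passed the intensity filter and in 11 of 15 (73.3%) of those that did not. Windows on chromosome 18 were left out, and these counts describe letters, not bound sites.

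Rab8a and Rab8b deliver vesicles to the plasma membrane, and Rab8a also serves the cilium. Rab8a read 2227, 2403, 2287 and 2489.9 in WT 1 to WT 4 and 2089.7, 1974, 2089.7 and 2154 in KO 1 to KO 4. It was the only tested Rab gene whose labels did not overlap, every library labelled knockout lying below every library labelled wild type. Over all genes, 0.601% had this order and 0.526% the opposite one, 1.13% in all, where 1 and 0 of the 39 Rab genes (2.56% and 0%) did. Without WT 4, Rab8a was again the only such Rab gene, beside 0.89% of all genes in this order, 0.777% in the opposite one and 1.67% in either. Means were 2077 ± 75.0 (SD, n = 4) for the knockout label and 2352 ± 118 (SD, n = 4) for the wild-type label. The fold change of -0.18 ± 0.11 (SE) was -0.15 without WT 4, the unadjusted p in limma was 0.12, and the second kept Rab8a probe (ILMN_2928051) did not share the direction. That probe read 409, 374, 419.6 and 206 in WT 1 to WT 4 and 404, 448, 453 and 492 in KO 1 to KO 4. Its labels overlapped, its fold change was 0.43 ± 0.24 (SE), and 0.17 without WT 4. Rab8b read 6156, 6878, 5445 and 4852 in WT 1 to WT 4 and 5154, 5851, 6706 and 5844 in KO 1 to KO 4. Its fold change was 0.020 ± 0.15 (SE), at an adjusted p of 0.956 in limma, and -0.065 without WT 4, and the second probe stood at -0.057.

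Rab10, which carries exocytic vesicles and returns Toll-like receptor 4 to the surface of mouse macrophages, read 598, 408, 619.8 and 1138 in WT 1 to WT 4 and 553, 546, 437 and 508 in KO 1 to KO 4. WT 4 was higher than any other library, and the fold change of -0.35 ± 0.28 (SE) became -0.069 without it, and -0.58 without WT 2 (unadjusted p 0.0428 in limma, adjusted p 0.505). Rab11a, the Rab of the recycling endosome, read 290.4, 238, 240.1 and 315 in WT 1 to WT 4 and 256, 224, 249.7 and 246 in KO 1 to KO 4. Its fold change was -0.15 ± 0.14 (SE), and -0.072 without WT 4. Rab11b, its close relative, read 3547, 3711, 3018 and 3929.8 in WT 1 to WT 4 and 3457, 3315, 3072 and 2876 in KO 1 to KO 4, with overlapping labels and a fold change of -0.16 ± 0.13 (SE), and -0.11 without WT 4. Rab14, which acts between the Golgi and endosomes, read 2547, 1817, 2647 and 3529.9 in WT 1 to WT 4 and 2282, 2454, 1634 and 2242 in KO 1 to KO 4. The fold change of -0.27 ± 0.22 (SE) was -0.12 without WT 4, -0.44 without WT 2 and -0.14 without KO 3.

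Rab31 and Rab35 were among the few Rab genes in which WT 4 lay inside the range of the others. Rab31, which links the trans-Golgi network and endosomes, read 3426, 3876, 3674 and 3703 in WT 1 to WT 4 and 3537, 3223, 4397 and 4033 in KO 1 to KO 4. KO 3 was the highest and KO 2 the lowest, so a single label spanned the whole range, and the fold change was 0.041 ± 0.13 (SE) at an adjusted p of 0.901 in limma. Rab35, a Rab of fast recycling and of the forming phagosome, read 1295, 1599, 1355 and 1411 in WT 1 to WT 4 and 1477, 1306, 1410.0 and 1525 in KO 1 to KO 4. Its fold change was 0.017 ± 0.12 (SE), with a 95% interval of -0.25 to 0.29 and an adjusted p of 0.954 in limma. Without WT 4, the values were 0.046 for Rab31 and 0.017 for Rab35. Other tested genes of this role were Rab4a and Rab15, described below, and Rab4b, Rab13, Rab21 and Rab22a. The fold changes of the latter 4 ran from -0.27 to 0.11, and from -0.068 to 0.059 without WT 4. Rab13 read only 91.5 to 110 over all libraries, near the array median of 86.2.

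Of the late endosomal and lysosomal Rabs 7 of 11 were tested. In this group 0 passed, 4 values were higher and 3 lower, and the median was 0.034, and -0.0095 without WT 4. Rab7, which drives fusion of late endosomes and phagosomes with lysosomes, read 3735, 4611, 4281 and 2689.6 in WT 1 to WT 4 and 3897, 4509.8, 4171 and 4107 in KO 1 to KO 4. WT 4 was the lowest, and the fold change of 0.15 ± 0.18 (SE) turned to -0.0095 without it. Its other 2 kept probes were lowest in WT 4 as well, at 88.8 against 219.6 to 476 and at 124 against 133 to 192. Rab7b, a late endosomal Rab known for limiting Toll-like receptor signalling in mouse macrophages, read 4166, 3897, 4293 and 3947 in WT 1 to WT 4 and 3797, 4657, 3994 and 4281 in KO 1 to KO 4. On that probe the fold change was 0.034 ± 0.11 (SE), at an adjusted p of 0.905 in limma, and 0.019 without WT 4. The second Rab7b probe was low in WT 4, at 1090.4 against 2499 to 2996 in the others.

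Rab9, which returns mannose 6-phosphate receptors from late endosomes to the Golgi, read 634, 447, 780.1 and 1368 in WT 1 to WT 4 and 635, 814, 518 and 766 in KO 1 to KO 4. WT 4 stood above all and WT 2 below all, and the fold change of -0.14 ± 0.32 (SE) (adjusted p 0.865 in limma) turned to 0.16 without WT 4. Rab32, a Rab of lysosome-related organelles, read 1647, 2040.2, 2124 and 2823 in WT 1 to WT 4 and 1689, 1716, 2196 and 2231 in KO 1 to KO 4. Its fold change of -0.13 ± 0.19 (SE) (adjusted p 0.807 in limma) turned to 0.012 without WT 4. Its relative Rab38 was at -0.14, and -0.013 without WT 4. Rab12 and Rab29, the latter a partner of the kinase LRRK2, were at 0.24 and 0.086, and at -0.023 and -0.045 without WT 4.

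Of the Rabs of regulated secretion 3 of 9 were tested, and 0 passed. Rab27a, which docks secretory lysosomes and melanosomes at the plasma membrane and is mutated in the ashen mouse, had the lowest fold change of all Rab genes. It read 160.4, 155, 119 and 242 in WT 1 to WT 4 and 134, 126, 129 and 121 in KO 1 to KO 4. The labels overlapped through WT 3, and WT 4 was the highest. Means were 127 ± 5.72 (SD, n = 4) for the knockout label and 169 ± 51.9 (SD, n = 4) for the wild-type label, and the fold change of -0.42 ± 0.22 (SE) (unadjusted p 0.0901 in limma) was -0.21 without WT 4, also the lowest of the Rab genes. Without WT 3, Rab27a was at -0.60 (unadjusted p 0.0149 in limma, adjusted p 0.626). Rab3a and Rab3d, of regulated exocytosis, were at 0.16 and 0.074, and at 0.094 and -0.042 without WT 4. Rab3a read only 87.7 to 110 over all libraries, near the array median of 86.2.

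Among the remaining genes, 3 of 5 were tested. Rab28, which is known from cilia, read 2202, 2002, 1946 and 3153 in WT 1 to WT 4 and 1799, 1639, 2096 and 1922 in KO 1 to KO 4. WT 4 was the highest, and the fold change of -0.30 ± 0.18 (SE) was -0.14 without it, while the second probe stood at 0.063, and at 0.10 without it. Rab24, of autophagy, and Rab40c, which joins a ubiquitin ligase, were at 0.21 and -0.023, and at 0.026 and -0.048 without WT 4.

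Probes of the same Rab gene parted in WT 4. Of the 39 genes, 17 had several kept probes, and in 7 of these (41.2%) WT 4 lay above all other libraries on 1 probe and below all of them on another. This was so for 34.4% of the 2763 genes with several kept probes. With each other library in the place of WT 4, it was found in 0 Rab genes, except WT 3 with 1, and in 0.362% to 4.52% of all such genes. The 7 genes were Rab5a, Rab6a, Rab8a, Rab10, Rab14, Rab34 and Rab43.

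For Rab5a, the probe ILMN_1253400 read 694 in WT 4 and 233 to 339.6 in the other libraries. The representative probe ILMN_2786764 read 210.3 against 508 to 663, and ILMN_2786763 read 190.3 against 318 to 451. On the background-corrected log2 scale WT 4 lay 1.38 above the mean of the others on the first probe and at -1.62 on the second. For Rab10, WT 4 read 1138 against 408 to 619.8 on ILMN_2654296 and 85.2 against 163 to 269 on ILMN_2668608. Rab6a had 4 kept probes, of which ILMN_1242802 (102 against 198 to 286) and ILMN_2719507 (86.6 against 129 to 146) were low in WT 4. The other Rab6a probes, ILMN_2699635 (212 against 114 to 150.2) and ILMN_2825339 (183 against 94.0 to 111), were high. Rab34 showed the same on ILMN_2633777 (288 against 144 to 188) and ILMN_3029294 (91.3 against 159.5 to 208).

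**Figure D3:**
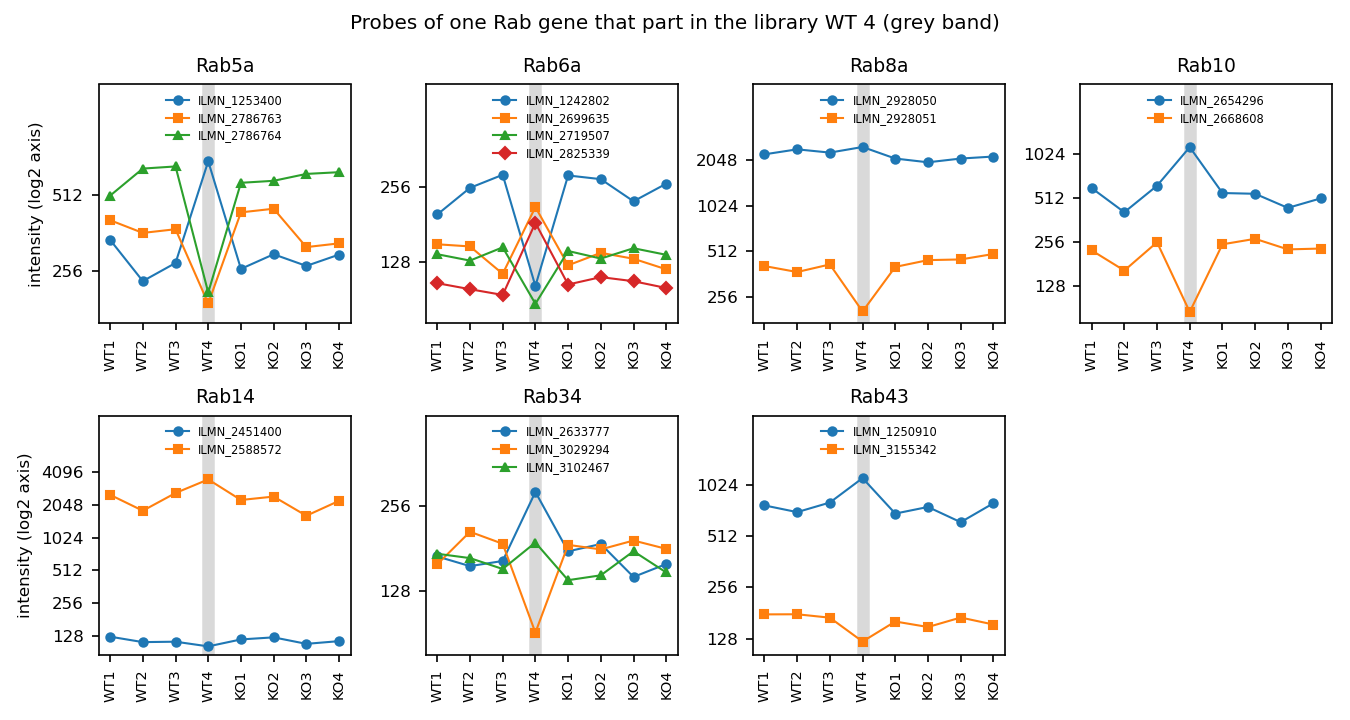
Intensity (y axis, log2 scale) of the kept probes of the 7 Rab genes in the 8 libraries (x axis), with WT 4 on a grey band. In WT 4, 1 probe or more of each gene lies above the 7 other libraries and 1 or more below them, as for Rab5a at 694 and 210.3.

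The sign of the fold change differed between kept probes in 8 of the 17 genes, near the 48.8% of all such genes. The Rab10 probe ILMN_2668608 had a fold change of 0.63 ± 0.36 (SE), opposite to that of the representative probe, and the Rab5a probe ILMN_1253400 had -0.34 ± 0.32 (SE). With kept probes averaged, Rab10 was at 0.14, Rab8a at 0.13, Rab7 at 0.38, Rab7b at 0.19, Rab14 at -0.11, Rab28 at -0.12 and Rab43 at -0.13. Without WT 4 the 2 single probes were at 0.23 and 0.0071. The sign differed without WT 4 in 9 of the 17 genes, against 52.5%. The Rab7 probe ILMN_2618549 had the highest fold change of all 62 kept Rab probes, 0.70 ± 0.51 (SE), and 0.16 without WT 4. The sources used here do not give which transcripts these probes read.

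On their representative probes, Rab4a, Rab15, Rab24 and Rab32 followed the library numbers that also parted Vav1, and were chosen for this after their values were seen. Rab4a, which recycles endocytosed receptors, read 231, 261, 171 and 157 in WT 1 to WT 4 and 235, 228, 173 and 151 in KO 1 to KO 4. All libraries numbered 1 and 2 lay above all numbered 3 and 4, under both labels, from 228 up against 173 and below. Rab15, an endosomal Rab, read 159, 181, 97.5 and 83.3 in WT 1 to WT 4 and 137, 158, 113 and 108 in KO 1 to KO 4, the same order, with a label fold change of 0.069 ± 0.31 (SE), at an adjusted p of 0.931 in limma. Without WT 4, where the numbers are no longer balanced between the labels, Rab15 was at -0.17 and Rab4a moved from -0.056 (adjusted p 0.926 in limma) to -0.19. Rab24 read 543, 529, 483 and 318 in WT 1 to WT 4 and 592, 555, 521 and 449 in KO 1 to KO 4, in the same order with narrow gaps. Its other 2 kept probes did not follow the numbers, at 394 to 503 in the libraries numbered 1 and 2 against 350.2 to 438 in the others, and at 175 to 194 against 96.5 to 211. Rab32 had the reverse order, 1647 to 2040.2 in the libraries numbered 1 and 2 and 2124 to 2823 in the others.

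Over all genes tested, 4.13% had the first order and 3.7% the second, 7.83% in all, where 3 and 1 of the 39 Rab genes (7.69% and 2.56%) did. Summed markers of 3 other cell types did not overlap between the numbers either. The sums of macrophages, T cells, B cells, stromal cells, and erythroid cells and megakaryocytes did overlap. All sums include any markers of a list that failed the filter. Those of mast cells had a summed intensity of 465 to 605 in the libraries numbered 1 and 2 and 365 to 426 in the others. Those of neutrophils had 655 to 706 against 609 to 653, and those of dendritic cells 512 to 523 against 464 to 503. Of the single markers past the filter, S100a8 (200 to 255 against 174 to 224) and Itgax (157.4 to 179 against 125 to 158.5) overlapped between the numbers. S100a9 (104 to 124 against 82.4 to 94.2), Cpa3 (102 to 107 against 78.9 to 96.3) and Kit (186 to 319 against 109 to 146) did not. Of the 10 macrophage markers only Cd14 and Mertk parted by number, in opposite directions. Cd14 read 1100 to 1218 against 337 to 637, and Mertk 632 to 721 against 741 to 1228. All other macrophage markers overlapped, such as Adgre1 at 6026 to 8360 against 6583 to 11859. The part of these cells in the Rab values was not tested.

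**Figure D4:**
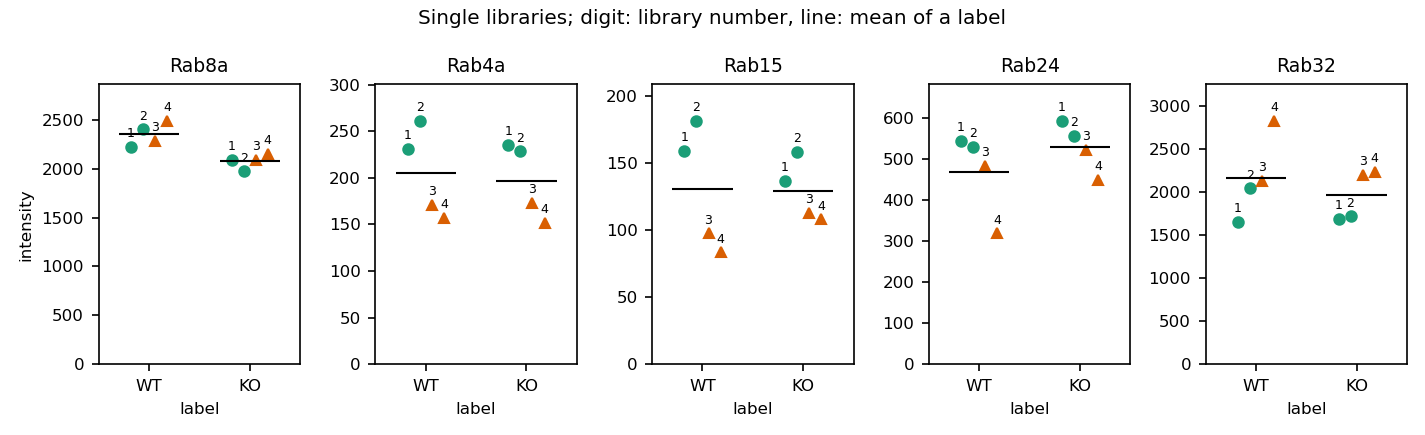
Intensity (y axis, from 0) of Rab8a, Rab4a, Rab15, Rab24 and Rab32 in each library, by label (x axis), with the library number beside each point, circles for numbers 1 and 2, triangles for 3 and 4, and lines for the mean of a label. Rab8a is lower in all 4 libraries labelled knockout, while Rab4a and Rab15 are high in the libraries numbered 1 and 2 under both labels.

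The proteins that load, switch and read the Rabs were counted from 1 list for each function. Of the 6 genes of prenylation and recycling on the array, 4 were tested, 0 passed, 4 values were higher and 0 lower under the knockout label, with a median log2 fold change of 0.17. Without WT 4, 2 were higher and the median was 0.12. Gdi2, a GDP dissociation inhibitor that extracts Rabs from membranes, read 251, 295, 418 and 146 in WT 1 to WT 4 and 392, 370.0, 363 and 422 in KO 1 to KO 4. WT 4 was the lowest, the labels overlapped, and the fold change of 0.63 ± 0.30 (SE) was 0.32 without WT 4. Rabac1, a membrane receptor for prenylated Rabs, was at 0.24 and Rabggtb, a subunit of the prenylating enzyme, at 0.10, and at -0.026 and -0.0034 without WT 4.

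Of the exchange factors, 21 of 27 on the array were tested, 0 passed, 8 were higher and 13 lower, and the median was -0.023, with 9 higher, 12 lower and -0.014 without WT 4. The smallest p-values there belonged to Dennd1a (0.34), which activates Rab35, Dennd4b (0.46), which acts on Rab10, and Trappc9 (-0.24), a tethering complex subunit. Without WT 4 these genes were at 0.20, 0.16 and -0.10. For GTPase activating proteins, 25 of 32 were tested, 0 passed, 11 were higher and 14 lower, and the median was -0.029, with 13 higher, 12 lower and 0.00067 without WT 4. Evi5 was at -0.29, Tbc1d13 at 0.39 and Tbc1d25 at 0.29, and at -0.11, 0.074 and 0.054 without WT 4. Effectors had 31 tested genes of 42, with 0 passing, 17 higher, 14 lower and a median of 0.0044, with 16 higher, 15 lower and 0.0018 without WT 4. Vps16, a subunit of the complexes that tether late endosomes, was at 0.41, Eea1, the Rab5 effector that tethers early endosomes, at -0.43, and Mical1, an actin-oxidising effector, at 0.75. These became 0.14, -0.19 and 0.15 without WT 4, in which Mical1 read 83.9 against 317 to 420.4 in the others.

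The Arf family was taken as the Arf, Arl and Sar1 small GTPases, some of which act in coat assembly on membranes. Of its 14 genes on the array, 11 were tested and 0 passed. Among those tested, 5 were higher and 6 lower, at a median of -0.012, and -0.042 without WT 4. Whether this median differs from that of the Rab genes was not tested.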

How the data were processed

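Total RNA was labelled with biotin and hybridised to Illumina beadchips, per the labels' protocols. The intensity values the authors deposited are linear and already normalized between arrays, since the 8 columns share a distribution. The sources used here do not give the software or background treatment. A second deposited table has 16 columns whose names match no label and was not used. The plan for raw signals with detection p-values was therefore replaced by its stated alternative.

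For the fit, limma 3.58.1 (R 4.3.3) was used. Intensities received a normexp correction with an offset of 50 and were put on the log2 scale. Probes were filtered (at least 100 on at least 4 arrays, leaving 13479 probes) and fitted by label with lmFit and eBayes. The offset sets how large changes of dim probes appear. Rab27a was at -0.42 with it, -0.56 with an offset of 16 and -0.36 on the uncorrected intensities. Fold changes of dim probes can therefore exceed those of the printed intensities. P-values were adjusted over all kept probes by the method of Benjamini and Hochberg. Intensities are printed as deposited, and fold changes are log2 differences, knockout label minus wild-type label. Symbols came from the platform annotation (34885 probes with 1 symbol, 18 with several, 10378 with none). No Rab symbol changed when looked up in RefSeq (GRCm38.p6).

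The rule for named genes took 22 Rab genes, given with all 8 values: the 6 with the smallest p, the 6 with the widest range, the 6 with the highest mean and a phagosome set. It also took the 3 regulators with the smallest p per list, given mostly by fold change alone. Genes named for another reason were chosen after their values were seen. The members, lists, roles and tests were chosen with earlier results of these data known. One further gene list is not reported here. The fit was tested on simulated data. Alternatives covered correction, filter, variance model, array weights, replicate block, gene representative, threshold and leaving out each library. Figures were drawn with matplotlib 3.10.9.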

Additional observations from a re-analysis of the deposited data

Results flagged for a closer look

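In the 44 groups of 4 libraries formed by the 22 named Rab genes and the 2 labels, 2 values stood apart from the rest of their group by more than the 95% limit of Dixon's test. Chance alone flags about 5% of unselected groups. That rate does not apply here, since genes were named partly by range and p on the same values. No share over all genes is given. Both were high values in the library labelled WT 4. Rab2a read 4526 there, against 3178 in the next library of that label. Rab5b read 248, against 144 in the next.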

How the results depend on the processing

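Under the 18 alternatives, 0 Rab genes passed the threshold in limma, also at a threshold of 0.10. Over all probes, 1 probe passed when WT 4 was left out and the replicate number was used as a block (2900060B14Rik, log2 fold change -1.85, adjusted p 0.0137), and 0 in every other setting. With all 8 libraries and the replicate block, 0 probes passed. As each number occurs once under each label, this block cannot change a fold change. The median of the Rab genes therefore stayed at -0.13 and no sign could turn. Same-numbered libraries had deviations from their label means that correlated at 0.46, -0.17, 0.14 and 0.13. As 1 of the 4 lay under 0.1 and no label ties the numbers to animals or days, they were not taken as pairs. The median moved from -0.13 to -0.045 with no filter, -0.023 with the mean of kept probes, and -0.047 without WT 4 and with the block. It was -0.13 to -0.045 when single libraries were left out, the last value without WT 4. Array weights, which gave WT 4 a weight of 0.077, put the median at -0.075. That change was smaller than the SD of the Rab median among libraries of a label, 0.063. Without WT 4 and with the block, signs turned for Rab15 (-0.072), Rab1b (-0.010), Rab35 (-0.015), Rab5a (-0.031), Rab7 (-0.0027), Rab8b (-0.063) and Rab9 (0.10). With array weights they turned for Rab15 (-0.077), Rab32 (0.0051), Rab7b (-0.0017), Rab8b (-0.075) and Rab9 (0.10), and with the mean of kept probes for Rab10 (0.14), Rab8a (0.13) and Rab8b (-0.018). Leaving out single libraries gave -0.17 to 0.29 for Rab15, -0.025 to 0.46 for Rab1b, -0.034 to 0.12 for Rab31, -0.25 to 0.012 for Rab32, -0.025 to 0.078 for Rab35, -0.0069 to 0.58 for Rab5a, -0.0095 to 0.25 for Rab7, -0.019 to 0.080 for Rab7b, -0.065 to 0.10 for Rab8b and -0.39 to 0.16 for Rab9. Among genes whose sign held, the widest span was 0.11 to 0.69 for Rab6a. Rab10 had -0.58 to -0.069, Rab27a -0.60 to -0.21 and Rab14 -0.44 to -0.12. Apart from WT 4 and the mean of kept probes, whose construction sets the value, the cause was not tested. The threshold was not applied to the median. The stricter filter left 32 of the 39 Rab genes, and of the 22 named genes Rab5b, Rab15 and Rab27a had no value under it.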
